A study of Mus musculus with 15 samples.

Results

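Gene expression in hematopoietic stem cells of aged mice labelled Thbs1 knockout was compared with that in stem cells of aged control mice. The comparison holds 10 of the 15 libraries of the series: 5 aged controls of 18 months and 5 libraries labelled aged Thbs1 knockout, also of 18 months. The other 5 libraries, young controls of 3 months, entered the same fit, where they add to the estimate of the spread, and their levels are given for reference. Columns were grouped by sample title, and the 11345 of 20696 genes with a mean of at least 1 FPKM (fragments scaled by transcript length and library depth) over all 15 libraries were tested. Each column carries a sample title and a library name. The sample whose description holds that library name is the titled one for 5 columns and a different one for the other 10. Yet the letter within the library names goes with the titles: A in every young control, B in every aged control and C in every labelled knockout. By the sexes in the library names, aged controls 1 to 3 were male and 4 and 5 female, while labelled knockouts 1 and 2 were male and 3 to 5 female. The summed level of 6 sex-linked genes was 3.34 to 10.3 FPKM in libraries named male and 2.59 to 5.85 in those named female. These ranges overlap, so the sum does not tell the sexes apart. Of the 6 genes, 1 stood above a low cut in each library named female. In those named male it was 2 to 4, except labelled knockout 2 with 1. The sexes below are therefore those of the names. The labels name bone marrow as the tissue, stem cells purified by flow cytometry as the cells, and no strain, no sort gate and no description of the deleted allele. Whether the 5 libraries per group are separate mice is not stated, so the spread behind each p-value is that of these libraries and may be technical.

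Hematopoietic stem cells sit in the bone marrow and renew all blood lineages. With age they become more numerous but less effective, lean toward platelet and myeloid output, and take up surface and secreted genes that young stem cells hold low. Thrombospondin 1, the product of Thbs1, is a matrix glycoprotein that platelets release and that binds CD47, CD36 and integrins and can activate latent TGF-beta.

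Thbs1 itself was read first, because it checks the label. It lay at 0.20, 0.01, 0.62, 8.75 and 4.90 FPKM in aged controls 1 to 5 and at 2.53, 1.69, 17.89, 12.69 and 17.25 FPKM in labelled knockouts 1 to 5. The groups overlapped, and the labelled knockouts were not lower. Within males the difference was 1.30 and within females 1.15 on the log2(FPKM + 1) scale, both toward the knockout label. In the fit of all libraries the difference was 1.73 (SE 0.71, limma adjusted p = 0.302), and an exact two-sided permutation test gave p = 0.111, with 0.00794 the smallest possible. Neither takes sex into account, and Thbs1 was lower in males (0.01 to 2.53 FPKM) than in females (4.90 to 17.89) of the aged groups. A fit with sex as a term gave 1.27, which passed (limma adjusted p = 0.0377), higher under the knockout label. A value per gene does not show whether the reads cover the deleted exons. Every direction below is therefore for libraries labelled aged Thbs1 knockout, and "rose" or "fell" means higher or lower in them than in aged controls.

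Reads assigned to genes numbered about 17370000 to 24710000 in aged controls and 17990000 to 25410000 in labelled knockouts, as recovered from the rounding of the deposited values. These totals are approximate. In aged control 3 and labelled knockout 5 they exceeded the recovered library size, at ratios of 1.008 and 1.038. Labelled knockouts 2 and 5 stood apart from the rest: rRNA-like genes took 3.76% and 1.75% of their reads, against 0.47% to 1.18% in the other 13 libraries. Beside the genes marked in the text, Ecm1 (adjusted p = 0.0537), Cldn5 (0.0927), Kif23 (0.0723), Itpka (0.144), Snap23 (0.0895), Gimap6 (0.121), Calr (0.0548), Pdia4 (0.108) and Sdf2l1 (0.0557), called with all libraries, did not pass limma's test without labelled knockouts 2 and 5. The stem cell regulator gene Hlf lay at 25.3 to 35.73 FPKM in aged controls and 29.64 to 38.33 in labelled knockouts. The pan-leukocyte gene Ptprc was low in both groups, at 0.62 to 1.25 FPKM. Defining genes of other cells were near 0 in the aged libraries: Adgre1 of macrophages reached 0.32, Cdh5 of endothelium 0.19, Col1a1 of stroma 0.16 and Cdh1 of epithelium 0.25 FPKM. Platelet genes were not near 0, since Pf4 lay at 126.3 to 1579.13 FPKM in aged controls and 51.65 to 184.72 in labelled knockouts. In bulk RNA, fewer cells of a type and less RNA per cell cannot be told apart.

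**Figure D1:**
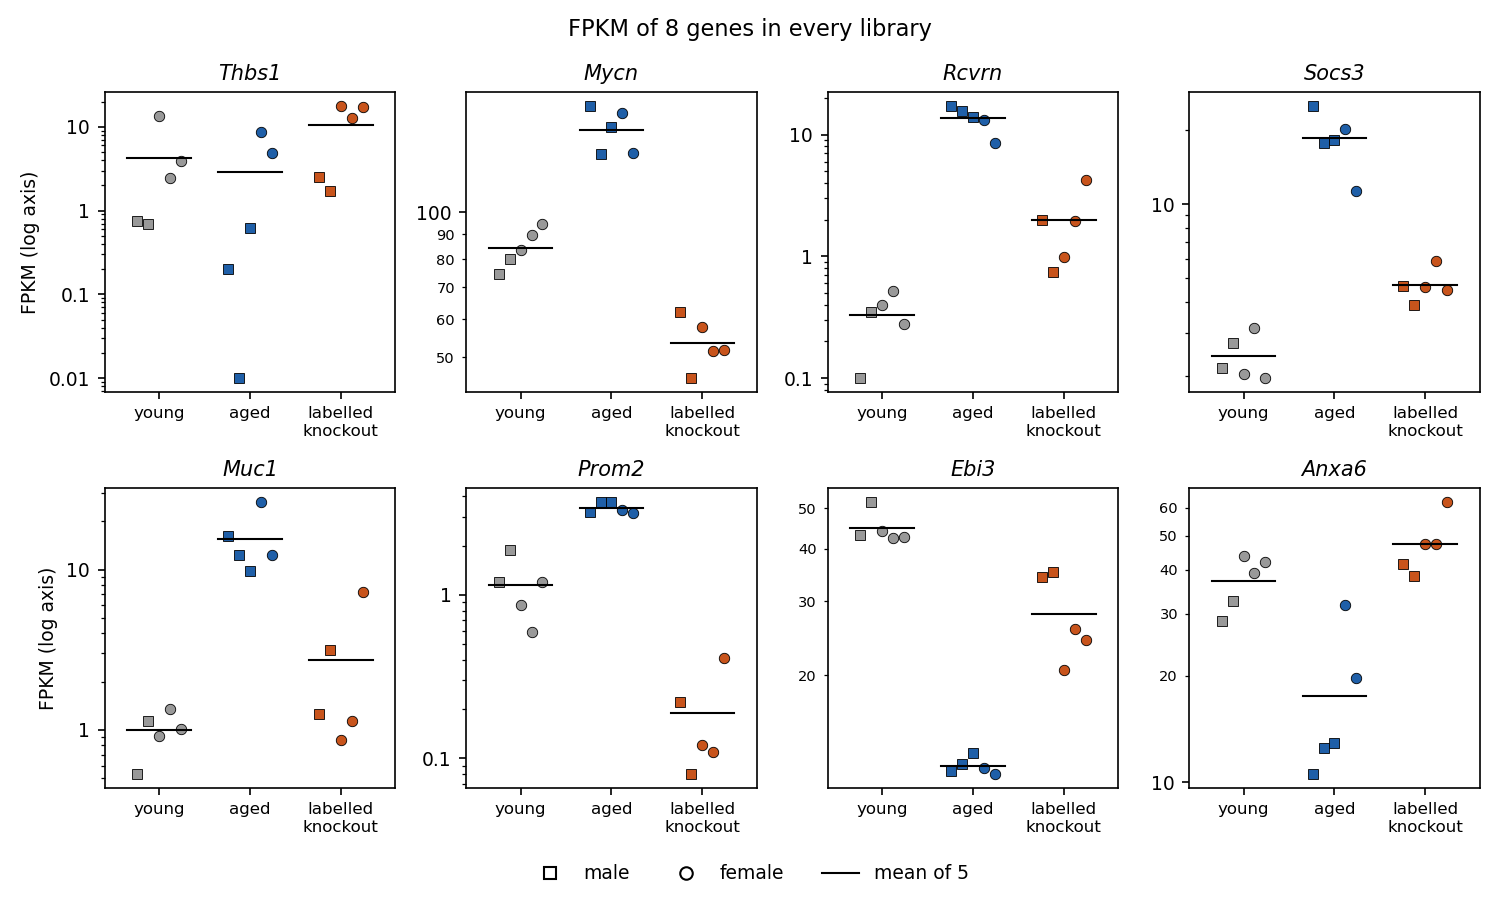
FPKM on log axes of 8 genes in every library of the 3 groups of 5 (squares male, circles female, line the mean of 5). For Mycn, Rcvrn, Socs3, Muc1 and Prom2 every labelled knockout lies below every aged control, for Ebi3 and Anxa6 every one lies above, and for Thbs1 the groups overlap.

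In all, 176 genes passed the test between the labelled knockouts and aged controls (limma, Benjamini-Hochberg adjusted p under 0.05), which is 1.55% of the genes tested. Of these, 41 rose (0.361%) and 135 fell (1.19%), and 160 were protein-coding. The fall reached at least 1 on the log2 scale for 73 genes and the rise for 14. Every labelled knockout lay above every aged control for 35 of the 41, and below every aged control for 98 of the 135; over all genes tested such a gap stood above in 85 (0.749%) and below in 181 (1.6%), or 2.34% in either direction. The median difference of all genes was -0.03. When the columns were grouped by the library names in the sample descriptions instead of the titles, 0 genes passed (limma; 731 at an unadjusted p under 0.05). Leaving out aged control 1, 2 or 3 lowered the count to 95, 102 or 115, and 89 of the 176 passed in each of the 10 refits that left out 1 aged library. A fit of the 10 aged libraries alone called 77 genes, 76 of them among the 176. Called genes named below that did not pass in it include Calr, Cebpd, Cldn5, Csf3r, Gatm, Gimap6, Gnl3, Gp1bb, Igtp, Il2rg, Itgb3, Itpka, Klrb1c, Oas1a, Pdia4, Rtp4, Sdf2l1, Serping1, Snap23, Snhg1, Snhg15, Spint1, Stat3, Tnfaip2, Vwf and Zfas1. Without labelled knockouts 2 and 5 together 184 genes passed, 112 of them among the 176.

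The transcripts that moved furthest belong to near-identical copies, and their sequences are shown first because the reads of such pairs are hard to assign. Gm28438 is a 345-base copy of the mitochondrial gene mt-Nd3, a subunit gene of respiratory complex I, on chromosome 1 (GRCm38 chr1:24612775-24613119). Over those 345 bases it differs from mt-Nd3 (chrM:9459-9806) at 1, written T3C with the base of mt-Nd3 first and positions counted from the first coding base. The first 60 bases of both are shown from the GENCODE M21 transcripts, with the differing base in capitals.

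mt-Nd3: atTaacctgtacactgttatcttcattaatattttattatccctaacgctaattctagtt
Gm28438: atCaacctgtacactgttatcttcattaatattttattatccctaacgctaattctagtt

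mt-Nd3 lay at 20.86, 20.29, 24.19, 11.17 and 15.64 FPKM in aged controls 1 to 5 and at 0.27, 0.44, 0.15, 0 and 0.59 in the labelled knockouts. Gm28438 did the opposite, with 0.64, 0, 0, 0 and 0.12 FPKM in aged controls and 36.98, 51.47, 18.08, 16.66 and 30.68 in labelled knockouts. Neither transcript overlapped between the groups. In recovered reads, mt-Nd3 went from 89 to 177 per aged control to 0 to 5 per labelled knockout, and Gm28438 from 0 to 4 to 122 to 346. The log2 differences were -3.89 (SE 0.19, adjusted p = 4.88e-10) and 4.69 (SE 0.25, adjusted p = 9.62e-10). Summed, the pair lay at 18.6 ± 5.14 FPKM in aged controls and 31.1 ± 14.5 in labelled knockouts (SD, n = 5 each), so a fall of mt-Nd3 itself is uncertain. In the young controls the sum was 14.1 ± 2.43 FPKM, and Gm28438 averaged 0.252.

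Pcna-ps2, on chromosome 19 (chr19:9283380-9284160), is a processed copy of Pcna, which encodes the sliding clamp of DNA replication. Pcna lies on chromosome 2 (chr2:132249162-132253314), 14.14 Mb from Thbs1. The copy matches the Pcna transcript over 781 bases with 6 mismatches. Its differences in coding positions counted from the first base of the start codon are A144G, A177C, G424A, A586G, G618T and G699A, the base of Pcna first. Coding bases 73 to 192 are shown because they hold A144G and A177C, whose bases are in capitals.

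Pcna: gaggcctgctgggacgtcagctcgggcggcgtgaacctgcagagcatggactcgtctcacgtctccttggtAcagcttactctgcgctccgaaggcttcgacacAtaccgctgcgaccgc
Pcna-ps2: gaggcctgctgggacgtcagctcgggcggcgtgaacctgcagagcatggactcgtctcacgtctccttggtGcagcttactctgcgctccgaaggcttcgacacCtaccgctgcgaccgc

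Pcna-ps2 lay at 0.44, 0.60, 1.29, 1.01 and 1.36 FPKM in aged controls and at 18.51, 24.46, 28.18, 27.00 and 33.36 in labelled knockouts. This was 6 to 25 recovered reads per aged control and 303 to 638 per labelled knockout, with no overlap. The log2 difference was 3.82 (SE 0.18, adjusted p = 2.58e-10). Pcna lay at 62.1 ± 17.5 FPKM in aged controls and 49.5 ± 8.99 in labelled knockouts, and its difference of -0.30 did not pass (adjusted p = 0.457). A smaller case was Gm7658 on chromosome 1, which is 98.5% identical over 1125 aligned bases to Eif3m, a translation initiation factor gene on chromosome 2. Gm7658 lay at 0.21 to 0.61 FPKM in aged controls and 1.96 to 2.73 in labelled knockouts (log2 difference 1.16, adjusted p = 0.000223), while Eif3m did not pass (0.33, adjusted p = 0.377). Not every source lies on chromosome 2. Gm6477 on chromosome 10, a copy of Npm1 on chromosome 11, rose from 0.656 ± 0.299 to 2.36 ± 1.19 FPKM (0.97, limma adjusted p = 0.0229). It passed in 7 of the 10 refits that left out 1 library, and not without labelled knockouts 2 and 5 (adjusted p = 0.102). Npm1 did not pass (1.08, adjusted p = 0.0538). Which member of a pair the reads came from was not tested.

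**Figure D2:**
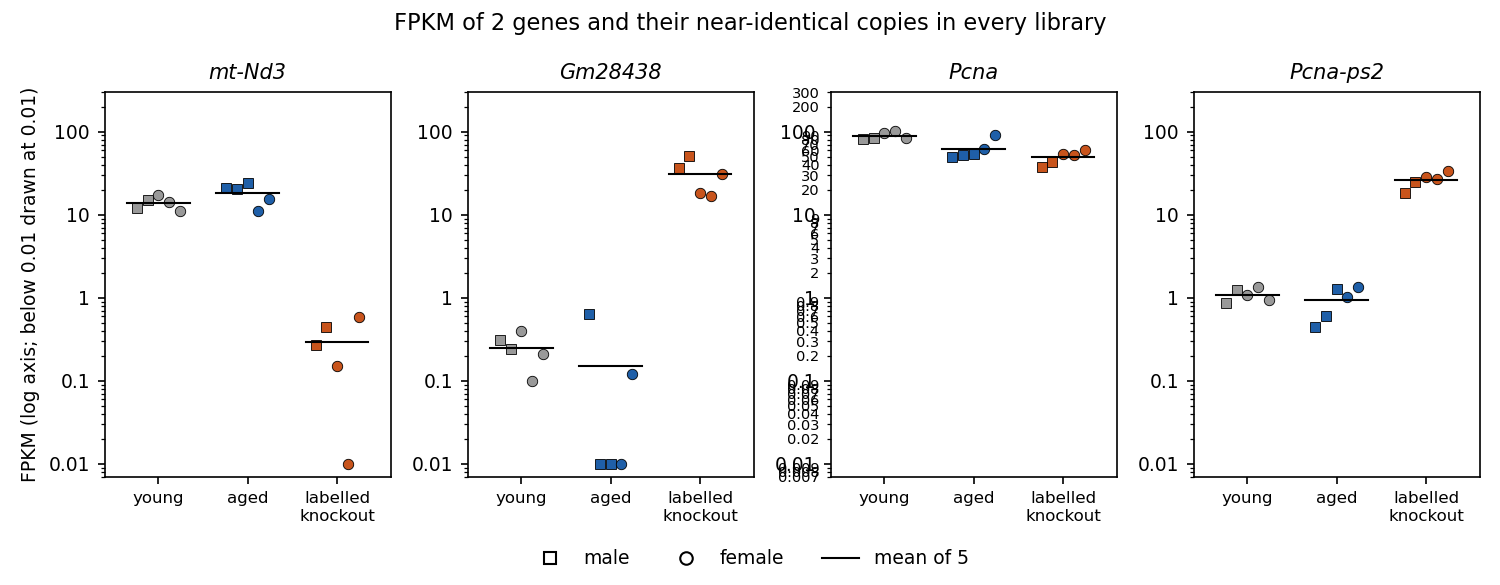
FPKM on log axes of mt-Nd3, Pcna and their near-identical copies in every library (squares male, circles female, line the mean of 5; values below 0.01 are drawn at 0.01). Gm28438 and Pcna-ps2 lie higher in all 5 labelled knockouts than in any other library, and mt-Nd3 lies lower, while Pcna overlaps.

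The genes next to Thbs1 were called more often than the rest of the genome. On chromosome 2, 11 of the 118 genes tested within 10 Mb of Thbs1 passed (9.32%), 5 of 90 at 10 to 20 Mb (5.56%) and 11 of 701 farther away (1.57%). On the other chromosomes 149 of 10436 passed (1.43%), and the 19 with at least 100 genes tested ranged from 0.716% to 2.58%, the highest being chromosome 15. All 11 neighbours lay on the higher-coordinate side of Thbs1, where 100 genes were tested; the 17 tested on the lower side held 0. The difference in these shares is a description, with no test. Thbs1 itself lies at chr2:118111876-118127133.

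Sord, which encodes sorbitol dehydrogenase, lay at 196.68, 197.29, 187.61, 200.25 and 208.19 FPKM in aged controls and 93.97, 71.62, 99.77, 101.38 and 89.33 in labelled knockouts, 4.12 Mb from Thbs1. Its libraries were tight within each group and did not overlap (log2 difference -1.12, SE 0.11, adjusted p = 1.46e-05). Tmem87a, a Golgi membrane protein gene 2.24 Mb from Thbs1, lay at 0.55 to 0.66 FPKM in all 5 aged controls and at 5.46, 3.22, 6.74, 7.90 and 5.72 in labelled knockouts. No aged control came near the lowest labelled knockout (log2 difference 2.06, SE 0.18, adjusted p = 1.46e-06). Prom2, which encodes a pentaspan membrane protein of epithelial protrusions, lay at 3.16 to 3.71 FPKM in aged controls and 0.08 to 0.41 in labelled knockouts (log2 difference -1.90, adjusted p = 9.86e-07).

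Kcnip3, whose product binds calcium and is also known as DREAM, starts 9.34 Mb from Thbs1, beside Prom2, and fell by 1.96 on the log2 scale. It lay at 10.15 to 15.8 FPKM in aged controls and 0.83 to 3.43 in labelled knockouts. The purine nucleoside transporter gene Slc28a2 fell by 1.28, Spata5l1 by 1.27, Spint1, an inhibitor gene of membrane serine proteases, by 1.10, and the SNARE gene Snap23 by 0.88. The clone Gm14207 fell by 1.63. Besides Tmem87a, Gatm of creatine synthesis (1.14) and the inositol kinase gene Itpka (0.82) rose. Snap23 passed in 2, Itpka in 2, Spint1 in 8 (not without aged control 1 or 2) and the other 8 neighbours in all 10 of the refits that each left out 1 library. Farther out, the complement inhibitor genes Cd59b (-1.0) and Cd59a (-0.88) fell 14.04 and 14.02 Mb from Thbs1. They are paralogs, so their reads may be shared.

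**Figure D3:**
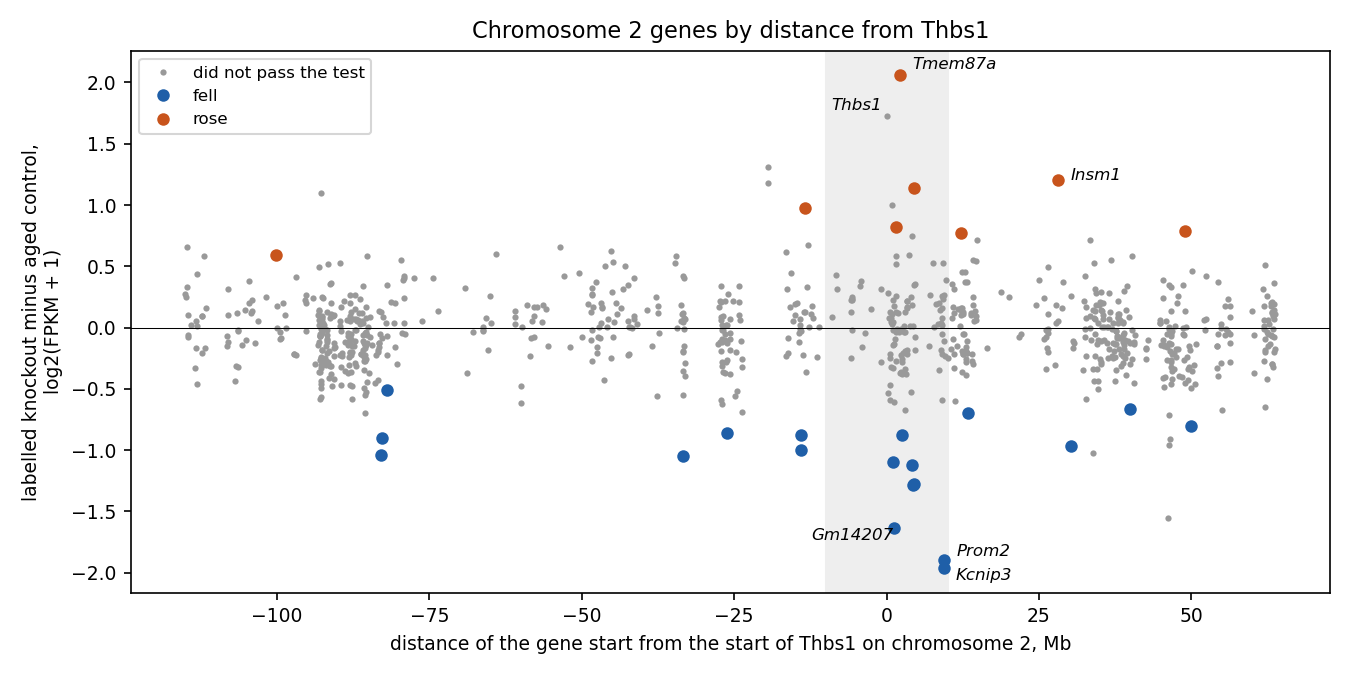
Difference between labelled knockouts and aged controls (log2(FPKM + 1)) of every tested gene on chromosome 2 against the distance of its start from that of Thbs1 in Mb; the grey band is 10 Mb on each side. The 3 genes that rose and the 8 that fell within the band all lie on its right side.

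Lists of genes by function show where the other calls fell. The members were read against the 1.55% called among all genes, and each list is given by its counts and its median difference beside the -0.03 of all genes. Over all 11345 genes tested, 1469 had an unadjusted p under 0.05 (limma) and 54.6% had a negative difference. Of 41 lists, 21 held at least 1 called gene.

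Genes known to rise in aged stem cells were the list with most calls. Of 36 tested members, 16 fell, 0 rose and 20 did not pass, with a median difference of -0.83. The list holds genes that were picked as age-linked with these libraries in view, so its direction is not independent evidence. The mean log2(FPKM + 1) of the list was 4.41 to 4.78 in aged controls, 3.32 to 4.10 in labelled knockouts and 2.77 to 2.88 in young controls, with no overlap between any of the groups. Without labelled knockouts 2 and 5, 18 members fell, with a median of -0.71.

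Rcvrn, a calcium sensor gene of photoreceptors, lay at 17.26, 15.73, 14.01, 13.11 and 8.57 FPKM in aged controls, at 1.98, 0.74, 0.98, 1.94 and 4.24 in labelled knockouts, and averaged 0.33 in young controls. The groups did not overlap (log2 difference -2.39, SE 0.25, adjusted p = 1.89e-05). Ehd3, an endocytic recycling gene, lay at 71.32, 67.71, 62.37, 87.82 and 87.25 FPKM against 33.78, 17.23, 29.26, 34.67 and 25.46. Every labelled knockout was below every aged control (-1.42, SE 0.17, adjusted p = 9.38e-05). Clu, which encodes the secreted chaperone clusterin, lay at 102.73 to 161.01 FPKM in aged controls and 40.49 to 71.43 in labelled knockouts, again with no overlap (-1.25, adjusted p = 0.000281).

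Labelled knockout 5 was the least changed for several of these genes. Nupr1, a stress-induced chromatin protein gene, lay at 70.04 to 97.30 FPKM in aged controls, 26.21 to 30.92 in labelled knockouts 1 to 4 and 75.62 in labelled knockout 5. Plscr2, a phospholipid scramblase gene, lay at 3.86 to 5.90 in labelled knockouts 1 to 4 and 18.61 in labelled knockout 5, against 18.02 to 33.17 in aged controls. Tmem215 and Muc1 followed the same order, with 2.70 and 7.21 FPKM in labelled knockout 5 and at most 0.76 and 3.15 in the other 4. Without labelled knockouts 2 and 5 the difference of Nupr1 went from -1.28 to -1.55 (adjusted p = 2.3e-05) and that of Muc1 from -2.30 to -2.90 (adjusted p = 5.78e-06). Not every gene of the list moved: Mllt3 (0.20), Aldh1a1 (-0.03) and the metallothionein gene Mt1 (-0.01) did not pass.

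Of 36 stem cell identity genes, 2 fell, 0 rose and 34 did not pass (median -0.20). Mycn, a Myc-family transcription factor gene, lay at 166.55, 131.94, 150.4, 160.55 and 133.12 FPKM in aged controls and 62.18, 45.30, 57.70, 51.57 and 51.76 in labelled knockouts. Every labelled knockout lay far below every aged control (log2 difference -1.45, SE 0.12, adjusted p = 9.86e-07); within males it was -1.47 and within females -1.43. Ly6a, which encodes the sorting antigen Sca-1, lay at 240.63 to 306.15 FPKM in aged controls and 84.90 to 208.75 in labelled knockouts (-1.12, SE 0.20, adjusted p = 0.00432). Regulator genes of stem cell identity did not pass, among them Hlf (0.19), Meis1 (-0.21), Mecom (-0.11) and Gata2 (-0.39, adjusted p = 0.0865), nor did the surface genes Kit (-0.35), Procr (-0.35) and Slamf1 (-0.71, adjusted p = 0.1). Kit turned positive without labelled knockouts 2 and 5 (0.29), which held 34.48 and 50.89 FPKM against 93.98 to 154.88 in the other 3. Of 25 Myc network genes Mycn was the 1 that passed; Myc lay higher without passing (0.66, adjusted p = 0.087).

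Of 24 megakaryocyte and platelet genes, 5 fell, 0 rose and 19 did not pass (median -0.43), and 4 of the 5, all but Gp1bb, are also on the aging list. Itga2b, the platelet integrin subunit that pairs with that of Itgb3, lay at 144.86, 146.42, 144.52, 63.43 and 192.13 FPKM in aged controls and 50.95, 38.26, 49.11, 39.68 and 17.61 in labelled knockouts. Its lowest aged control was still above its highest labelled knockout (-1.80, SE 0.27, adjusted p = 0.00101). Selp, encoding P-selectin, lay at 66.34 to 82.73 against 15.58 to 42.05 (-1.35, adjusted p = 0.0102), Vwf, encoding von Willebrand factor, at 54.02 to 89.92 against 16.62 to 50.47 (-1.21, adjusted p = 0.00888), and Itgb3 at 65.90 to 77.70 against 20.70 to 64.03 (-1.04, adjusted p = 0.0139; not passed without aged control 1). Gp1bb also fell (-1.19, adjusted p = 0.0222), with overlapping groups, but not without aged control 3 or labelled knockout 4. Granule and lineage genes did not pass: Pf4 differed by -1.59 (adjusted p = 0.112), with 1579.13 FPKM in aged control 5, and Nfe2 by -0.43. The summed level of the list was 2080 to 4107 FPKM in aged controls and 1668 to 2003 in labelled knockouts; the part of platelet RNA in these calls was not tested.

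Cytokine signaling genes followed. Of 40 JAK-STAT and cytokine receptor genes, 5 fell, 1 rose and 34 did not pass (median -0.23). Socs3, the feedback inhibitor of STAT3-coupled receptors, lay at 25.20, 17.83, 18.18, 20.22 and 11.34 FPKM in aged controls and 4.63, 3.89, 4.62, 5.86 and 4.47 in labelled knockouts. The groups stood well apart (-1.75, SE 0.18, adjusted p = 1.79e-05), and the young controls averaged 2.40. Pim2, a survival kinase gene, fell from 75.6 ± 18.3 to 34.2 ± 5.69 FPKM (-1.10, adjusted p = 0.00338), and Stat3 itself from 55.8 ± 4.32 to 38.4 ± 6.23 (-0.54, adjusted p = 0.0403). The receptor genes Csf3r of G-CSF (-1.01) and Il2rg, the common gamma chain (-0.65), fell with overlapping groups, Il2rg not without aged control 1 or 2. Stat3 and Csf3r each passed in 4 of the 10 refits that left out 1 library, and without labelled knockouts 2 and 5 neither passed (adjusted p = 0.139 and 0.171).

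Ebi3, which encodes a subunit of heterodimeric cytokines such as IL-27, went the other way. It lay at 11.79, 12.27, 13.05, 12.03 and 11.61 FPKM in aged controls and 34.26, 35.31, 20.58, 25.82 and 24.28 in labelled knockouts, below the 44.9 of the mean young control. Aged controls lay close together, and every labelled knockout was above them (1.12, SE 0.14, adjusted p = 0.00018).

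Of 52 interferon response genes, 3 fell and 0 rose, while 49 did not pass; 42 of the 52 differences were negative, with a median of -0.33. With sex as a covariate 9 members fell (median -0.41). Igtp, a GTPase gene of cell-autonomous immunity, lay at 76.26, 59.42, 84.29, 64.27 and 125.01 FPKM in aged controls and 38.82, 28.58, 53.40, 43.84 and 46.67 in labelled knockouts (-0.92, SE 0.18, adjusted p = 0.0116). Rtp4 lay at 52.16 to 68.27 against 24.20 to 45.15 (-0.82, adjusted p = 0.0164) and Oas1a, a sensor gene of double-stranded RNA, at 32.57 to 42.25 against 24.98 to 29.05 (-0.50, adjusted p = 0.0379). None of the 3 overlapped between groups, but Oas1a passed in 3 of the 10 refits, and Rtp4 did not pass without aged control 2 or labelled knockout 2. Isg15 (-0.30), Irf7 (-0.52) and Ifit1 (-0.39) did not pass, and 18 of the 52 had an unadjusted p under 0.05, beside 1469 of all 11345 genes. Of 27 TNF and NF-kB response genes, 2 fell and 0 rose (median -0.23). Bcl3, a nuclear cofactor of NF-kB p50 and p52, lay at 20.21 to 30.38 FPKM in aged controls and 8.83 to 13.03 in labelled knockouts (-1.19, SE 0.16, adjusted p = 0.000292), and Tnfaip2 at 32.41 to 37.92 against 19.04 to 29.47 (-0.61, adjusted p = 0.0139). The subunit genes Rela (-0.29) and Nfkb1 (-0.20) and the inhibitor genes Nfkbia (-0.44) and Tnfaip3 (-0.22) did not pass.

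Promoter stretches of 3 called genes of these lists are shown to give the letters of the motifs searched; most members of the lists did not pass, and joint movement was not tested. They come from RefSeq (GRCm38.p6), run 5′ to 3′ on the gene's strand and end before the start site; capitals mark the 1 motif each stretch was chosen for. The interferon-stimulated response element was searched as GAAA repeated after a gap of 2 bases and the STAT site as TTCNNNGAA on both strands in the 250 bases before each start.

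Igtp: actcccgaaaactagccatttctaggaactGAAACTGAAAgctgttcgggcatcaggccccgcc
Oas1a: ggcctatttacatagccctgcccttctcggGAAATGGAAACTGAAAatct
Socs3: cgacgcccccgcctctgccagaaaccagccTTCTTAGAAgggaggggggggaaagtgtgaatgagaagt

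The Igtp window is chr11:58199492-58199555 on the plus strand, that of Oas1a chr5:120907526-120907575 on the minus strand and that of Socs3 chr11:117969482-117969550 on the minus strand. Oas1a holds 2 overlapping matches. Igtp and Oas1a also hold TTCNNNGAA in their 250-base windows, for Igtp in lower case within the stretch shown. The repeated GAAA stood in 2.98% of 32851 promoter windows of this length, in 3.33% of the 8462 tested genes with a window, and in 18 of the 37 tested interferon list members with a window (48.6%). Of the 100 genes that fell and had a window, 6 held it (6.0%), and of the 28 that rose, 2. TTCNNNGAA stood in 7.02% of all windows, in 6.96% of the tested genes with a window, in 12 of the 37 interferon members, in 13 of those 100 (13.0%) and in 4 of those 28 (14.3%). A match is a string of letters, not a shown site of binding. Bcl3, Stat3 and Pim2 held neither string in this window.

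Genes of the matrix and cell surface also held falls. Of 27 extracellular matrix genes, 7 fell, 0 rose and 20 did not pass (median -0.46). Col18a1, the collagen gene that yields endostatin, lay at 12.85, 7.58, 14.05, 13.26 and 14.91 FPKM in aged controls and 6.06, 1.97, 3.00, 2.70 and 1.32 in labelled knockouts (-1.83, SE 0.24, adjusted p = 0.000329). Tgfbi, a TGF-beta-induced matrix protein gene, lay at 8.65 to 27.65 FPKM against 1.72 to 7.27 (-1.84, adjusted p = 0.00234). The collagen chaperone gene Serpinh1 fell from 9.92 ± 1.29 to 4.37 ± 1.13 FPKM, the membrane collagenase gene Mmp14 from 8.82 ± 0.481 to 4.16 ± 1.05 and Ecm1 from 14.4 ± 4.88 to 5.98 ± 1.30. The basement membrane collagen genes Col4a1 (0.00) and Col4a2 (0.25) did not pass. Of 36 adhesion and junction genes 6 fell and 0 rose (median -0.42), among them Itgb7, a homing integrin gene, from 19.8 ± 3.4 to 9.61 ± 1.95 FPKM, and the tight junction gene Cldn5. Others of the 6 recur in other lists: Itgb3 is also a platelet and thrombospondin list gene, and Muc1 an aging list gene. The lists are thus not separate sets of genes. Cldn5 lay at 86.32, 95.29 and 89.61 FPKM in the male aged controls and 32.38 and 19.61 in the female ones, against 12.55 to 31.73 in labelled knockouts (-1.58, adjusted p = 0.0288); it passed in 4 of the 10 refits.

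Most genes of direct partners of thrombospondin 1 did not pass. Of 13 thrombospondin and receptor genes tested, Itgb3 and Calr, which encodes a chaperone that also serves as a cell-surface thrombospondin receptor, fell and 0 rose (median -0.15). The receptor gene Cd47 differed by 0.04 (adjusted p = 0.95), Itgav by 0.00, Itgb1 by 0.06 and Sdc4 by -0.12. Of 26 TGF-beta and BMP genes Tgfbi was the 1 that fell and 0 rose (median -0.08); Tgfb1 differed by -0.41 and Id1 by -0.10, and neither passed.

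A list of genes typical of epithelia was drawn up after their values were seen, so its counts describe and do not test. All 22 tested members had a negative difference (median -0.91), 12 of them past the threshold, and 11 passed without labelled knockouts 2 and 5. The mean log2(FPKM + 1) of the list was 2.87 to 3.27 in aged controls, 2.13 to 2.33 in labelled knockouts and 2.17 to 2.36 in young controls. Muc1, a membrane mucin gene that is also on the aging and adhesion lists, lay at 16.27, 12.24, 9.85, 26.52 and 12.26 FPKM in aged controls. In labelled knockouts it lay at 1.26, 3.15, 0.87, 1.14 and 7.21 (-2.30, SE 0.33, adjusted p = 0.000807). Epcam, an epithelial adhesion gene, lay at 2.76 to 10.47 against 0.75 to 2.24 (-1.54, adjusted p = 0.00162), and Lsr, a gene of tricellular junctions, at 7.78 to 14.87 against 2.82 to 6.89 (-1.21, adjusted p = 0.00198). Eps8l2 (-1.16), Krt8 (-1.06), Cnksr1 (-1.01) and the membrane protease gene Prss8 (-0.98) fell as well. Cdh1, the defining epithelial cadherin gene, was at 0 to 0.25 FPKM in the aged libraries. A list of complement genes, also drawn up afterwards, held 5 of 10 that fell (median -0.75): C4b lay at 2.23 to 9.50 FPKM against 0.55 to 1.39 (-1.74, adjusted p = 0.00127), and Serping1, the C1 inhibitor gene, fell from 2.25 ± 1.52 to 0.514 ± 0.433 (passed in 5 of the 10 refits) beside Clu, Cd59a and Cd59b.

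**Figure D4:**
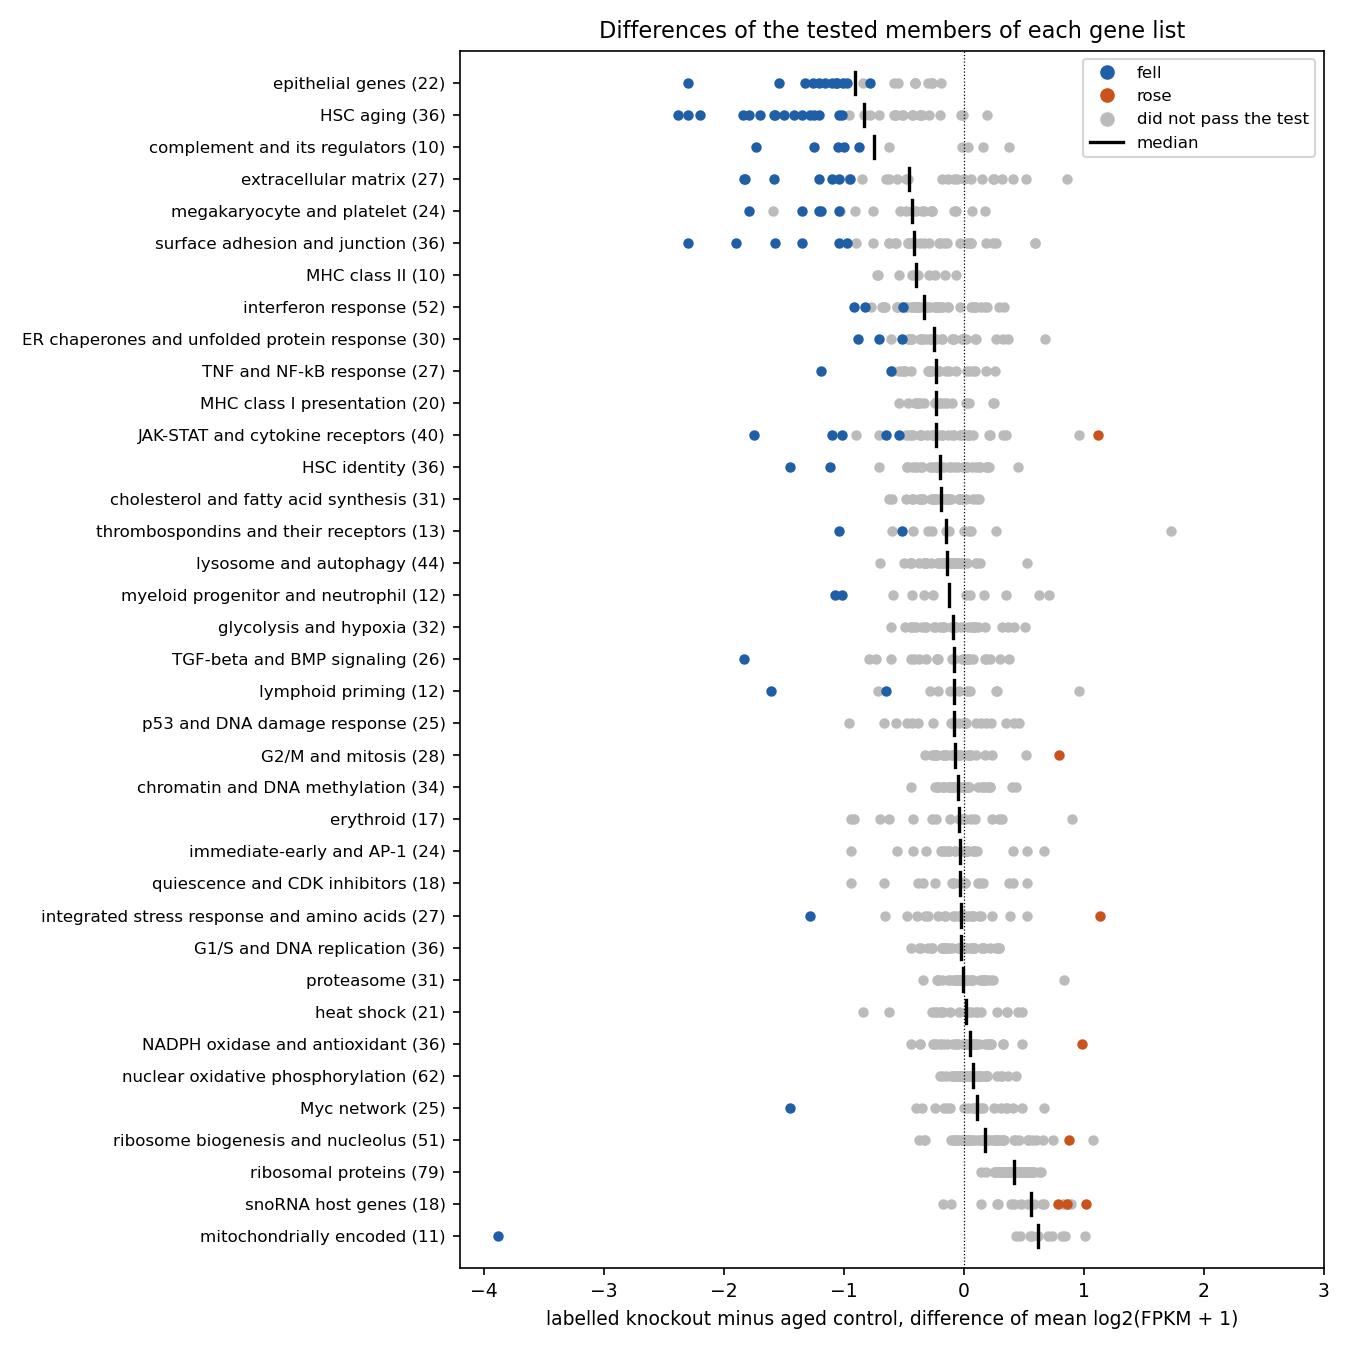
Difference between labelled knockouts and aged controls (log2(FPKM + 1)) of each tested member (points) of the 37 lists with at least 10 tested members, whose number is in parentheses; black lines are medians. The epithelial (-0.91) and aging (-0.83) lists lie lowest and the snoRNA host (0.56) and mitochondrially encoded (0.62) lists highest; without labelled knockouts 2 and 5 the medians of the last 2 were both 0.29.

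Genes of ribosomes and their assembly had positive median differences over all libraries, with few calls. All 79 ribosomal protein genes had a positive difference (median 0.42), and 0 passed (limma; 14 at an unadjusted p under 0.05, 0 by voom, 0 without labelled knockouts 2 and 5, and 3 rose with quantile normalization). Their summed level was 26040 to 42360 FPKM in aged controls and 29280 to 76470 in labelled knockouts, and without labelled knockouts 2 and 5, the libraries with most rRNA-like reads, the median was -0.02. Of 18 host genes of small nucleolar RNAs, 3 rose and 0 fell (median 0.56): Snhg1 from 8.02 ± 2.58 to 17.4 ± 7.05 FPKM, Snhg15 from 41.1 ± 11.7 to 75.6 ± 25.1 and Zfas1 from 20.3 ± 1.59 to 37.9 ± 15.8. They passed in 6, 4 and 3 of the 10 refits, and voom called 1 member of the list. Without labelled knockouts 2 and 5 the 3 did not pass (adjusted p = 0.0927, 0.113 and 0.11), and the median was 0.29. Of 51 ribosome biogenesis genes Gnl3, a nucleolar GTPase gene, rose and 0 fell (median 0.18); Gnl3 also did not pass without both libraries (adjusted p = 0.157). The 62 nuclear genes of oxidative phosphorylation held 0 calls (limma; 1 at an unadjusted p under 0.05, 0 by voom), with a median of 0.08 that became -0.20 without them.

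Cell cycle and stress lists held few or no calls. Of 36 genes of the G1/S transition and DNA replication 0 passed (limma; 1 at an unadjusted p under 0.05, 0 by voom; median -0.02), and of 28 mitotic genes Kif23, a midzone kinesin gene, rose from 1.14 ± 0.352 to 2.69 ± 0.438 FPKM and passed in 3 of the 10 refits (median of the list -0.07). Aged control 5 had the highest mitotic level of the aged libraries, with a list mean of 4.11 against 2.97 to 3.11 in the other aged controls. The 8 lists of quiescence, p53, heat shock, lysosome, proteasome, glycolysis, sterol and chromatin genes held 0 calls among 235 genes (limma; 38 at an unadjusted p under 0.05, 0 by voom). Cdkn1a, the p53 target that halts the cycle, lay at 7.74 ± 1.83 against 4.52 ± 1.14 FPKM (-0.66, adjusted p = 0.0659), and passed without labelled knockouts 2 and 5 (-0.82, adjusted p = 0.0297). Of 30 endoplasmic reticulum chaperone and unfolded protein genes, 3 fell and 0 rose (median -0.25): Calr (-0.51, adjusted p = 0.0478), Pdia4 (-0.71, adjusted p = 0.0392) and Sdf2l1 (-0.88, adjusted p = 0.0327), which passed in 2, 3 and 4 of the 10 refits; without labelled knockouts 2 and 5, 1 list member fell. All 10 MHC class II genes had a negative difference (median -0.40), and 0 passed (limma; 2 at an unadjusted p under 0.05, 0 by voom).

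Genes that rose were fewer and spread over functions. Anxa6, a calcium-dependent membrane-binding gene, lay at 10.53, 12.51, 12.94, 31.87 and 19.75 FPKM in aged controls and 41.47, 38.54, 47.46, 47.51 and 62.51 in labelled knockouts, with no overlap (1.48, SE 0.23, adjusted p = 0.00146). Ctla2a, a cysteine protease inhibitor gene, lay at 46.99 to 66.04 against 81.22 to 157.67 (0.87, adjusted p = 0.0133). Ncf1, which encodes the p47 organizer subunit of the phagocyte NADPH oxidase, lay at 0.32 to 1.16 against 2.10 to 3.50 (0.98, adjusted p = 0.00375). The neuroendocrine zinc finger gene Insm1 rose from 0.524 ± 0.222 to 2.64 ± 1.24 FPKM, Dupd1, a dual-specificity phosphatase gene, from 0.478 ± 0.162 to 2.88 ± 0.907, and the secreted cytokine-like gene Cytl1 from 0.848 ± 0.631 to 4.38 ± 2.01 with overlapping groups. Gimap6, a GTPase gene of the immunity-associated family, lay at 63.40 to 113.98 against 104.61 to 140.52 (0.58, adjusted p = 0.0456) and passed in 3 of the 10 refits without 1 library.

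Lineage genes of lymphoid and myeloid cells gave a few falls. Cd53, a leukocyte tetraspanin gene, lay at 20.26, 14.47, 16.27, 19.29 and 9.47 FPKM in aged controls and 5.62, 4.60, 4.90, 4.27 and 2.98 in labelled knockouts (-1.61, SE 0.20, adjusted p = 0.000161), the same in males and females at -1.55. Of 12 lymphoid priming genes it and Il2rg fell and 0 rose. Gpr183, an oxysterol receptor gene of immune cell migration, lay at 26.01, 32.78, 27.91, 31.83 and 12.33 FPKM against 7.21, 7.19, 2.43, 4.29 and 14.88, so aged control 5 and labelled knockout 5 met (-1.84, SE 0.32, adjusted p = 0.00362). Of 12 myeloid genes Csf3r and Cebpd (-1.08) fell and 0 rose, Cebpd not without aged control 1 or 2; the granule protease gene Prtn3 did not pass (-0.59). The NK receptor gene Klrb1c fell from 17.8 ± 4.96 to 6.88 ± 4.82 FPKM but not without aged control 1, aged control 2 or labelled knockout 2, while Nkg7 (-0.96, adjusted p = 0.1) and Lck (-0.04) did not pass. The summed level of the T and NK list was 75.08 to 143.5 FPKM in aged controls and 36.18 to 70.2 in labelled knockouts; its part in the fall of Klrb1c was not tested. Of 17 erythroid genes, 0 passed (limma; 3 at an unadjusted p under 0.05, 0 by voom).

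The difference was also read within each sex, as given in the library names. Among males 161 genes passed (1.42%; 115 fell and 46 rose) and among females 30 (0.264%; 20 fell and 10 rose). Of the male calls 144 had the same sign in females, and of the female calls 28 had the same sign in males. The 21 genes that passed within both were 13.0% of the male and 70.0% of the female calls. For 132 of the 176 genes called over all libraries the difference was larger in males. Yet no gene passed a test of the difference between the sexes (limma, smallest adjusted p = 0.386; 377 genes at an unadjusted p under 0.05). Males held the lower replicate numbers in every group, so sex and any batch along the numbering cannot be told apart.

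**Figure D5:**
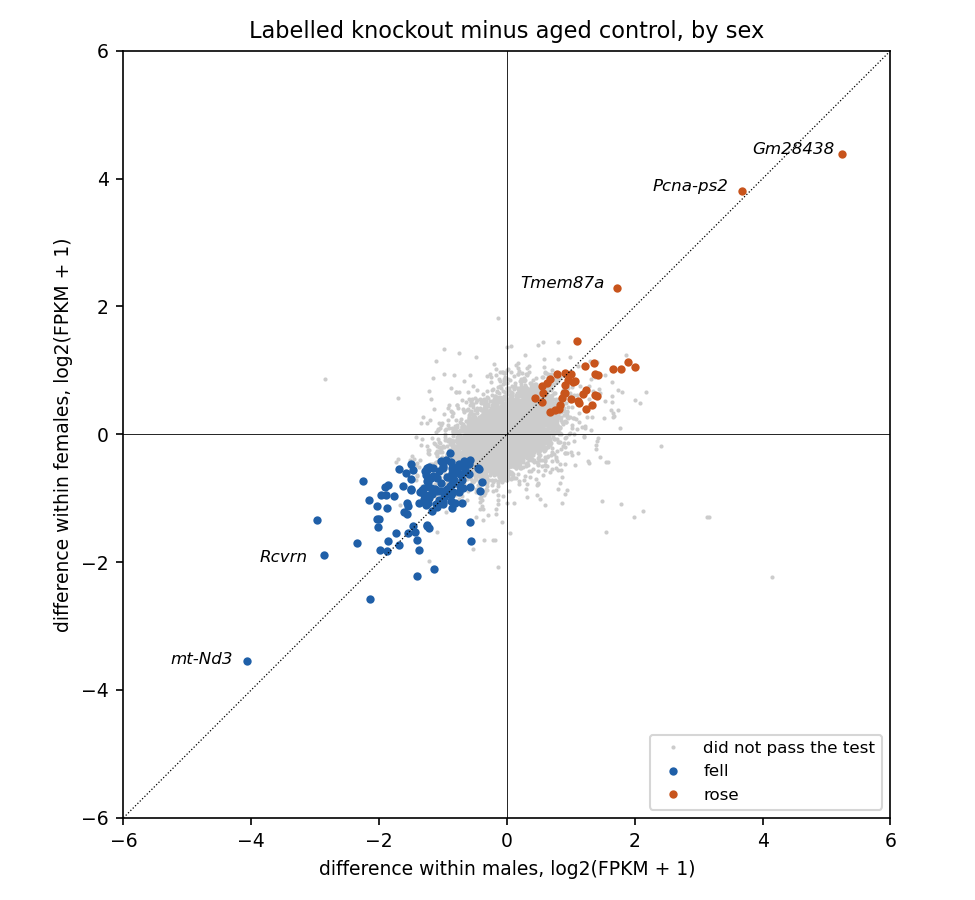
Difference between labelled knockouts and aged controls (log2(FPKM + 1)) within males (x axis, 3 aged controls and 2 labelled knockouts) against that within females (y axis, 2 and 3) for all 11345 genes tested; the dotted line marks equal differences. All 176 called genes have the same sign in both sexes, as do 67% of all genes tested. The 176 were called on these same libraries together, which favors a shared sign, so this is not a replication across sexes. The fall of Rcvrn (-2.87 and -1.89) is larger in males.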

How the data were processed

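RNA of sorted mouse hematopoietic stem cells was sequenced in 15 libraries (SMART-Seq v4, per the labels' protocols). The authors deposited 1 table of FPKM values; FastQC 0.11.5, STAR, edgeR and the build GRCm38 (mm10) are named per the submitters' processing notes, while the aligner's settings and the strand handling were not given in the sources used here. All 15 columns were mapped by title (0 columns unmapped). Genes averaging 1 FPKM or more were tested in 1 fit of log2(FPKM + 1) with a mean for each group (limma 3.58.1 with trend, R 4.3.3; two-sided, Benjamini-Hochberg adjusted p under 0.05 over all 11345 genes), tested on simulated data first. Within-sex differences came from a fit of group by sex. A fold on this scale understates the change of low genes. Read numbers were worked back from the steps left by rounding, using GENCODE M21 exon lengths: at least 97.7% of held-out values came out whole within 0.1 reads, and voom on these reads called 149 genes. Depth limits precision for genes near 1 FPKM.

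Named genes were Thbs1, the 12 largest rises and 12 largest falls among called genes with at least 2 FPKM in the higher aged group, the 8 smallest p, the 6 highest levels, called genes with at least 4-fold different means, the called members among the 5 smallest p of each list (or the smallest p), the top 3 of each marker list by level, and called genes within 10 Mb of Thbs1. The rankings skip clone names, pseudogenes and genes linked to sex. The copies, the epithelial and complement lists and other genes given, mostly members that did not pass, were chosen after their values were seen. The comparison and all lists were chosen with earlier results of these data known. Alternatives varied the pseudocount, filter, scaling, covariates, libraries and labels. Some items withheld for evaluation are not reported here.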

Additional observations from a re-analysis of the deposited data

Results flagged for a closer look

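In 25 of 394 groups of 5 libraries, 1 library lay far from the other 4 by the gap to its nearest neighbour over the whole range (Dixon). Chance gives about 1 in 20 such groups.

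Labelled knockout 5 stood apart in 7 of them. Nupr1 lay at 75.62 FPKM there against 26.21 to 30.92 in the other labelled knockouts, Plscr2 at 18.61 against 3.86 to 5.90, and Tmem215 at 2.70 against 0.32 to 0.76. The snoRNA host genes Snhg1 (29.80 against 12.46 to 16.08) and Snhg15 (120.26 against 60.08 to 67.34) were high in the same library, and Itga2b was low (17.61 against 38.26 to 50.95). The proteasome list had a mean log2(FPKM + 1) of 6.52 against 5.97 to 6.11. In labelled knockout 2 the cytokine gene Il4 was high (11.17 FPKM against 3.67 to 5.16), Kcnip3 was low (0.83 against 3.00 to 3.43), and the means of the adhesion list (3.57 against 3.84 to 3.9) and Myc network list (5.37 against 5.46 to 5.49) were low. The nuclear receptor gene Nr1h3 was low in labelled knockout 3 (1.99 against 2.88 to 3.04).

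Aged control 5 was low for Cebpd (1.68 against 4.31 to 5.93 FPKM), Gpr183 (12.33 against 26.01 to 32.78) and Procr (60.87 against 109.46 to 133.20). The same library was high for the megakaryocyte and platelet list (mean log2 of 5.91 against 5.04 to 5.29), the mitotic list (4.11 against 2.97 to 3.11) and the integrated stress list (4.48 against 4.34 to 4.38). Aged control 4 was low for Itga2b (63.43 against 144.52 to 192.13 FPKM), Ly6a (240.63 against 285.90 to 306.15), the nuclear oxidative phosphorylation list (mean log2 of 6.41 against 6.76 to 6.90) and the MHC class I list (6.5 against 6.74 to 6.81). Col18a1 was low in aged control 2 (7.58 against 12.85 to 14.91 FPKM). The copy of the nucleophosmin gene, Gm6477, was low in aged control 3 (0.15 against 0.65 to 0.90), and Gm28438 was high in aged control 1 (0.64 against 0 to 0.12).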

How the results depend on the processing

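Against 176 calls (41 rose, 135 fell), a filter of at least 5 FPKM left 113 (22 rose), the 10 aged libraries fitted alone gave 77 (16 rose, 61 fell), and the rRNA-like share as a covariate gave 299 (239 fell), 160 of them shared. With sex as a covariate 239 genes passed, 175 of them among the 176. Voom on recovered reads gave 26 that rose. Grouping by the library names in the descriptions gave 0 called, 0 that rose and 0 that fell. Leaving out 1 library gave 95 to 229 calls, 17 to 47 that rose and 78 to 182 that fell, lowest without aged control 1 and highest without aged control 5; the cause of these shifts was not tested. Of 108 named called genes 69 passed in all 10 such refits. Thbs1 kept its direction in all alternatives and ranged from 1.39 to 2.21 with 1 library left out; with sex as a covariate it was 1.27 and passed (adjusted p = 0.0377). Among named genes, signs turned for uncalled genes only, leaving aside the grouping by library names, where signs were not counted. With the rRNA-like covariate Il4 was -0.21, Kit 0.14, Mecom 0.06 and Meis1 0.02. Without labelled knockouts 2 and 5 Il4 was -0.13, Kit 0.29 and Meis1 0.01, and with quantile normalization Lck was 0.01. With 1 library left out, Il4 ranged from -0.09 to 0.27, Lck from -0.13 to 0.03 and Mecom from -0.24 to 0.04. With the replicate number as a block 152 genes passed (29 rose, 123 fell) and Thbs1 was 1.73 (adjusted p = 0.0675). Deviations of same-numbered libraries correlated at 0.341, 0.372, -0.455, 0.527 and -0.037, so the numbers do not pair the libraries. Labelled knockout 5 aside, pairs of the same named sex correlated at 0.229 to 0.527 and pairs of opposite sex at -0.464 to -0.186. Labelled knockout 5 lay at -0.12 to 0.153 with the aged controls. The deviations thus share an axis along sex or batch, which cannot be told apart and which the main fit leaves out.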

Other observations

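A few further genes, picked after their values were seen and sharing no list, fell in the libraries labelled aged Thbs1 knockout. Thbd, encoding the thrombin receptor thrombomodulin, went from 8.65 ± 2.29 to 3.86 ± 0.831 FPKM (limma log2 difference -0.97, adjusted p = 0.00936; SD, n = 5 each). Ackr1, the atypical chemokine receptor of the Duffy blood group, fell by 1.54 (adjusted p = 0.00409), the proton-sensing receptor gene Gpr4 by 1.31 (adjusted p = 0.00188) and the lipoprotein receptor gene Vldlr by 1.30 (adjusted p = 0.00187). S1pr1, a sphingosine 1-phosphate receptor gene of cell egress, fell by 0.69 (adjusted p = 0.0315) and passed in 4 of the 10 refits without 1 library. Ptgs1, which encodes cyclooxygenase 1, fell by 0.51 (adjusted p = 0.0267) and passed in 5.

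Among genes that rose were Acy1, an aminoacylase gene (0.86, adjusted p = 0.00173), Mgst1, a membrane glutathione transferase gene (0.76, adjusted p = 0.0267; 6 of the 10 refits), the cytokine gene Il15 (0.67, adjusted p = 0.0362; 3 of the 10) and the Runt factor gene Runx2 (0.57, adjusted p = 0.0315; 3 of the 10). Without labelled knockouts 2 and 5, Thbd (adjusted p = 0.0557), S1pr1 (0.137), Ptgs1 (0.0657), Mgst1 (0.103), Il15 (0.103) and Runx2 (0.0699) did not pass limma's test. In a fit of the 10 aged libraries alone the same 6 did not pass. These values describe single genes, and no list was drawn from them.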
